A study of Mus musculus with 30 samples.

Results

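The Zfp900 series is the block of mouse genes whose symbols run from Zfp900 to Zfp999, a nomenclature block that mostly holds KRAB zinc finger genes of rodent gene clusters. Members were chosen by symbol, with more than 14 raw counts summed over all 30 libraries. The counts hold 64 such symbols, and 62 passed this threshold, among 20139 genes tested and 54232 listed. Just inside it was Zfp989 with 15 counts and just outside it Zfp986 with 10, while Zfp935 had 0 counts. The threshold uses a measured level, so a gene that is read in one group alone could pass through that group. Counts are also given for the 46 members with a mean level of at least 1 CPM (counts scaled to the depth of the library) over all 30 libraries, a level that can be reached through the groups with high values in the same way.

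RNAseq was performed on 3T3-L1 cells, a mouse preadipocyte line that turns into fat cells in adipogenic medium. The labels give 6 groups with 5 libraries in each, all kept in adipogenic medium for 5 days. The Control group had no further addition, and the pNaKtide group had 0.7 µM pNaKtide, a cell-permeant peptide made to block signalling through the Na,K-ATPase and Src. The IS group had 100 µM indoxyl sulphate, a uremic toxin, and the oxLDL group had 50 µg/mL oxidized low density lipoprotein. The IS+pNaKtide and oxLDL+pNaKtide groups had the same agents at the same doses together with 0.7 µM pNaKtide. All groups are cultures of 1 immortalized line, no label says that the 5 libraries of a group came from separate experiments, and the p-values therefore measure the spread between these libraries, which may be technical.

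A zinc finger of the C2H2 type is a short fold in which 2 cysteines and 2 histidines hold a zinc ion, and rows of such fingers bind DNA. In many of these proteins a KRAB domain at the front recruits Trim28, also called KAP1, a corepressor that brings in Setdb1, a histone methyltransferase, and with it repressive chromatin. KRAB zinc finger proteins are best known for silencing retroelements in early development and in the germ line, and rodents have expanded them in clusters of recent copies. Most of the proteins named below have been described only by this family role.

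The annotation bore out the label. After translation of the annotated coding sequences, 58 of the 62 members had at least 3 C2H2 motifs, with a median of 11, and 56 matched a KRAB pattern. Of the 62, 61 are protein coding and Zfp939 is a transcribed unprocessed pseudogene. The members lie on 12 chromosomes of GRCm38. By a rule that joined neighbouring members less than 1 Mb apart, 42 of the 62 fell in 5 clusters of 3 or more, of which the largest, on chromosome 4 (145510759 to 147848366), held 16 symbols with 15 that passed. The clusters on chromosome 2 (175372436 to 178078476) and chromosome 17 (21567008 to 22867134) held 10 members each.

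The coding bases of 1 zinc finger and the linker after it are shown for 7 members, because they show how much sequence a read can share between these genes. For each member the finger closest to the second full-length finger of Zfp970 was taken from the GENCODE M21 transcripts, 84 bases long, 5′ to 3′ on the coding strand, with the codons of the 2 cysteines and 2 histidines in capitals. All 7 lie in the last coding exon, which is exon 4 of 4 in the first 4 genes and exon 5 of 5 in the other 3.
Zfp970 (chr2:177475115-177475198, plus strand): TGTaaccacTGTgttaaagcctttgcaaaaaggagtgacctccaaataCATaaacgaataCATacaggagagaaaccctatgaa
Zfp969 (chr2:175693794-175693877, minus strand): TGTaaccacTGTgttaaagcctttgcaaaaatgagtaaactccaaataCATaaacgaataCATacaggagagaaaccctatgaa
Zfp968 (chr2:175382283-175382366, plus strand): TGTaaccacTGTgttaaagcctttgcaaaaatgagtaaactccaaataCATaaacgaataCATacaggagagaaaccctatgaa
Zfp967 (chr2:176530825-176530908, plus strand): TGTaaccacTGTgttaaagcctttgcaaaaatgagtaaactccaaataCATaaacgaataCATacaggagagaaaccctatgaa
Zfp994 (chr17:22201163-22201246, minus strand): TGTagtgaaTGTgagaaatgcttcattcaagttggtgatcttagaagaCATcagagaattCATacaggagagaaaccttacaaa
Zfp979 (chr4:147613057-147613140, minus strand): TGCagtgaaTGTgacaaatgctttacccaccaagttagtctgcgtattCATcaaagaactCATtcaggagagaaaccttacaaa
Zfp954 (chr7:7115779-7115862, minus strand): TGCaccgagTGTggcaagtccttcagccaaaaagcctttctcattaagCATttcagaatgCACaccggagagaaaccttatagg
Zfp967, Zfp968 and Zfp969, all in the chromosome 2 cluster, had 1 and the same sequence here, which differed from that of Zfp970 at 3 of 84 bases and shared a run of 45 bases with it. Zfp994 shared 65.5% of the bases with Zfp970, Zfp979 60.7% and Zfp954 56%, with the longest common runs at 17, 13 and 11 bases.

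Reads were 50 bases long, so the share of 50-base words of each member's transcripts that occur in no other gene's transcripts was counted. The median share was 81.2%, 23 members had 90% or more, and 17 had less than 50%. Zfp967 and Zfp969 had no word of their own, since every word of Zfp969 occurs in Zfp968. Values of such members are uncertain, because reads could be split between copies or lost. No source used here says how the counting treated such reads.

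The start regions were taken from RefSeq (GRCm38.p6) to describe the bases that members share there. For 53 members the 250 bases before the annotated start were found. The CCAAT box, searched like all motifs here on both strands, occurred in 40 of the 53, or 75.5%, against 34.5% of 27025 promoters of the same length. CCGGAA, the core of ETS family sites, occurred in 21 members (39.6%, against 12.2%), and GGGCGG, the GC box, in 17 (32.1%, against 32.9%). TATAAA, the TATA box, was in the window of 0 members (13.0% of all promoters), CACGTG, an E-box, in 7 (13.2%, against 6.05%) and TGACGTCA, the cyclic AMP response element, in 1 (1.89%, against 1.62%). Members are copies of one another, and these counts are a description of shared letters with no test. The promoters set beside them include those of genes not tested here. Members were not split by their change, and other zinc finger genes were not counted apart. The 120 bases before the start are given for the member read most and for the pair that rose most with oxLDL among called members with non-overlapping groups and a mean of at least 1 CPM, with the matches in capitals.
Zfp970 (chr2:177464622-177464741, plus strand): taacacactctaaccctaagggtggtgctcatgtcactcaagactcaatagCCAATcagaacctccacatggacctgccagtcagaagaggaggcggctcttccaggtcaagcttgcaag
Zfp994 (chr17:22225615-22225734, minus strand): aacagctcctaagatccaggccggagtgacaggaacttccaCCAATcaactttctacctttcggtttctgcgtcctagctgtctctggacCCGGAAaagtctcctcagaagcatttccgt
Zfp979 (chr4:147642509-147642628, minus strand): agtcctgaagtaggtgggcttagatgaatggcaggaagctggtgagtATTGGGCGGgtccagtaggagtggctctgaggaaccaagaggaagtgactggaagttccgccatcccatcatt
The CCAAT box stood in all 3 windows, and in Zfp979 it was on the other strand and overlapped the GC box.

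The members are low in these cells. Library totals ran from 6945498 to 15159877 counts, and the members together made up 0.0286% of all counts, 619 to 6818 counts per library. The mean level of a member ran from 0.0392 to 18.4 CPM, with a median of 3.60. Per length, Zfp970 was highest with a mean of 8.37 FPKM (fragments per kilobase of gene, scaled to depth), followed by Zfp969 with 6.86 and Zfp954 with 4.80. In the 6 groups Zfp970 was at 6.33 ± 2.66 FPKM (SD, n = 5) in Control, 6.73 ± 2.33 with pNaKtide, 11.3 ± 3.75 with IS, 9.28 ± 1.57 with IS+pNaKtide, 11.9 ± 1.80 with oxLDL and 4.69 ± 0.851 with oxLDL+pNaKtide. The adipocyte marker Adipoq was at 676 to 1438 CPM in every library. Of 5 leukocyte markers Ptprc and Itgam had 0 counts in all libraries together, Adgre1 had 4 and Csf1r 65, and Cd14 was at 3.43 to 6.62 CPM in every library.

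The summed level of the 62 members was 315, 172, 216, 163 and 166 CPM in Control replicates 1 to 5. In the oxLDL group it was 387, 464, 342, 297 and 468 CPM. In the IS group it was 421, 397, 372, 174 and 335 CPM. Control replicate 1 thus stood above the other Control libraries and within the oxLDL range, and IS replicate 4 stood at the level of Control. The sum was 167, 161, 282, 168 and 200 CPM with pNaKtide alone, 294, 258, 308, 314 and 294 CPM with IS+pNaKtide, and 183, 198, 204, 102 and 148 CPM with oxLDL+pNaKtide. Every oxLDL+pNaKtide library lay below every oxLDL library. In bulk RNA a lower level in each cell and fewer cells that express a gene cannot be told apart.

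**Figure D1:**
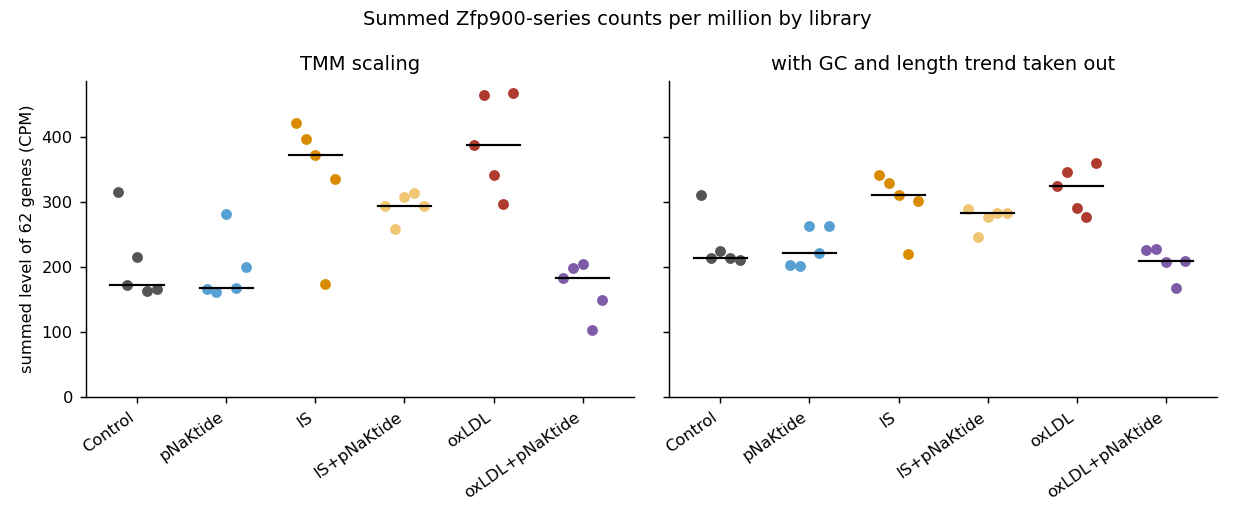
Summed level of the 62 members in each library (points, in CPM), by group, with the group median as a line, under TMM scaling (left) and after the trend with GC content and length was removed from every library (right). Control replicate 1 at 315 CPM lies above the lowest oxLDL library at 297, IS replicate 4 lies at 174, and on the right the medians of Control and oxLDL are 214 and 325.

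Libraries also stood apart over the whole table. On the first principal component, which held 68.9% of the variance over 11346 genes, Control replicate 1 was at -24.2 against 5.87 to 27.7 for the other Control libraries, and IS replicate 4 was at 26.4 against -33.9 to -21.3. Replicate 4 of oxLDL+pNaKtide was at 62.8 against 13.8 to 31.0, and replicate 3 of pNaKtide was at -5.07 against 14.5 to 33.9. Counts are therefore also given without the first 2 of these and without all 4. Both choices were made after the values were seen. Leaving out a library that lies toward the other group moves the group means apart by its own construction.

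The first question was whether oxLDL, an oxidized lipoprotein particle, changed these genes. With oxLDL, 50 of 62 members were higher than in Control and 0 were lower (BH-adjusted p under 0.1, edgeR's quasi-likelihood test), where 18.1% of all genes tested were higher and 18% lower. At an unadjusted p under 0.05 also 0 were lower, as by DESeq2 (48 higher, 0 lower) and limma (40 higher, 0 lower of 43 tested). Of all genes tested, 7914 were under this unadjusted p in either direction. Of the 46 members at 1 CPM or more, 43 were higher. The median log2 fold change was 1.04 over the 62 and 1.00 over the 46, beside 0.04 over all genes. In 21 members every oxLDL library lay above every Control library, as in 4.83% of all genes. Without Control replicate 1 and IS replicate 4, 51 were higher and 1 was lower, as without all 4 libraries that stood apart, and leaving out single libraries gave 43 to 52. In the fits without 2 and without 4 libraries 5055 and 5320 of the 20139 genes were higher, against 3637 with all libraries.

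Zfp994 (ENSMUSG00000096433, chromosome 17, 22197265 to 22225616), a member with 17 C2H2 motifs, rose most among called members with non-overlapping groups and a mean of at least 1 CPM. Its level was 3.69, 1.34, 3.06, 2.00 and 1.70 CPM in Control and 6.42, 11.3, 8.28, 5.00 and 10.6 CPM with oxLDL. Every oxLDL library was above every Control library, and the change was 1.81 ± 0.34 on the log2 scale (SE, n = 5 and 5, BH-adjusted p = 0.00551 in edgeR). Of its words 81.8% were its own.

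Zfp979 (ENSMUSG00000066000, chromosome 4, 147611937 to 147642513) was at 2.79, 1.19, 2.48, 1.161 and 1.89 CPM in Control. With oxLDL it was at 6.35, 7.08, 6.30, 2.82 and 7.23 CPM. The groups did not overlap, though oxLDL replicate 4 was barely above Control replicate 1, and the change was 1.64 ± 0.32 (BH-adjusted p = 0.00573).

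Zfp934 (chromosome 13) and Zfp975 (chromosome 7) were the other 2 of the 4 largest. Zfp934 had 0.567 to 1.07 CPM in Control, with a median of 0.669, and 1.29 to 3.27 CPM with oxLDL, and rose by 1.59 ± 0.38 (BH-adjusted p = 0.00812). Its mean over all 30 libraries was 1.28 CPM, so it reached 1 CPM through the groups in which it was high and is ranked here as a description. Zfp975 went from 0.946 to 1.89 CPM in Control to 2.01 to 6.17 CPM with oxLDL, a change of 1.56 ± 0.30 (BH-adjusted p = 0.00573).

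The 5 members of highest mean CPM changed by less than the median of the 62, 1.04. Zfp948, the next in level, lay above that median, as given below. A relation of level to change was not tested. Zfp970 (ENSMUSG00000078866, chromosome 2, 177464733 to 177478129) was at 24.2, 11.6, 11.7, 11.8 and 10.2 CPM in Control and at 26.0, 27.8, 22.7, 22.5 and 32.0 CPM with oxLDL. Only Control replicate 1 reached the oxLDL range. The change was 0.91 ± 0.24 (BH-adjusted p = 0.0110), and 50.3% of the gene's words were its own. Zfp969 rose by 0.95 ± 0.23 (BH-adjusted p = 0.00812) and Zfp968 by 0.83 ± 0.32 (BH-adjusted p = 0.0532), both with nearly all their sequence shared. Zfp968 lost its call without Control replicate 2, 4 or 5 or oxLDL replicate 2 or 5, with changes of 0.69 to 0.79 and BH-adjusted p up to 0.151, and with offsets (0.41 ± 0.27, BH-adjusted p = 0.342).

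Zfp961 (ENSMUSG00000052446, chromosome 8, 71951038 to 71993792) has 97.2% of its words to itself. It was at 15, 11.7, 14.3, 13.2 and 12.7 CPM in Control and at 18.7, 21.1, 19.6, 15.8 and 20.3 CPM with oxLDL, with no overlap. Its change was 0.51 ± 0.12 (BH-adjusted p = 0.00818), and the call was lost with GC content and length offsets (0.12 ± 0.08, BH-adjusted p = 0.353).

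Zfp954 (ENSMUSG00000062116, chromosome 7, 7114690 to 7121488) was the only one of the 5 most-read members that did not pass the test. Its level was 8.29, 14.4, 12.2, 14 and 13.4 CPM in Control and 9.60, 9.87, 12.1, 12.1 and 10.0 CPM with oxLDL. The groups overlapped through Control replicate 1, the lowest of the group, and the log2 difference was -0.22 ± 0.13 (BH-adjusted p = 0.194). Without that library it was -0.34, which passed the test. The GC content of its longest transcript was 50.1%, above the median of all genes tested.

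**Figure D2:**
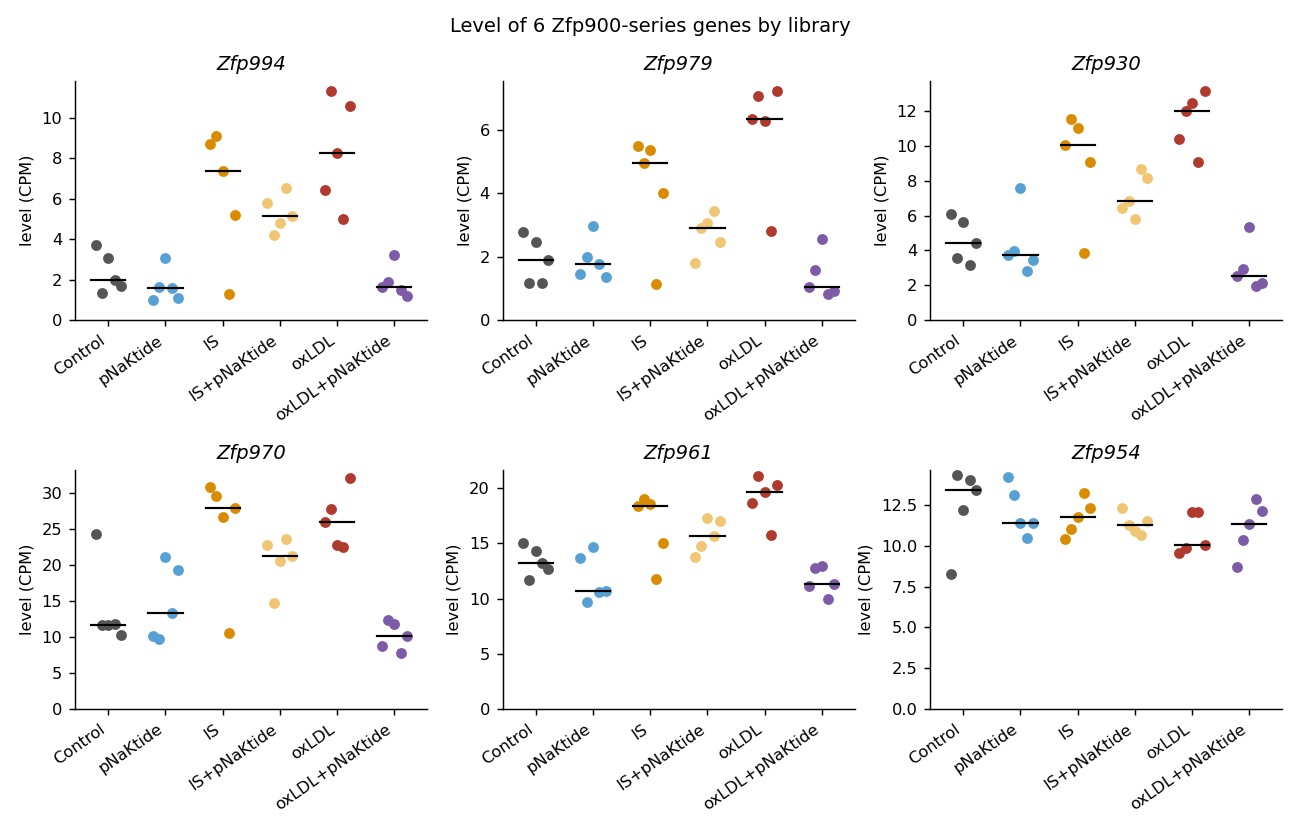
Level of 6 members in each library (points, in CPM) by group, with the group median as a line; the axes start at 0 and differ between panels. Zfp994, Zfp979 and Zfp930 are higher in every oxLDL library than in any Control library, and Zfp954 overlaps between all groups.

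Zfp930, Zfp948 and Zfp958 were, with Zfp979, the members of smallest p-value under GC content and length offsets, and each has over 99% of its words to itself. Zfp930 (ENSMUSG00000059897, chromosome 8, 69209038 to 69230536) was at 6.07, 3.56, 5.63, 3.17 and 4.45 CPM in Control and at 10.4, 12, 12.5, 9.11 and 13.2 CPM with oxLDL. No library of one group reached the other, and the change was 1.31 ± 0.25 (BH-adjusted p = 0.00573). Zfp948 rose by 1.08 ± 0.26 (BH-adjusted p = 0.00815) and Zfp958 by 0.95 ± 0.25 (BH-adjusted p = 0.0105), with overlap between the groups in both.

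The second question was what happened when pNaKtide was added to oxLDL. With oxLDL+pNaKtide, 50 of 62 members were lower than with oxLDL alone and 0 were higher, where 26.1% of all genes were lower and 22.1% higher. At an unadjusted p under 0.05 also 0 were higher, and DESeq2 (47 lower) and limma (40 lower) likewise called 0 higher. Of all genes tested, 9777 were under this unadjusted p in either direction. Of the 46 members at 1 CPM or more, 43 were lower. The median change was -1.37 over the 62, and -1.34 over the 46. In 34 members every oxLDL+pNaKtide library lay below every oxLDL library, as in 14.8% of all genes. The calls with single libraries left out ran from 47 to 50, and 47 were left without oxLDL+pNaKtide replicate 4, the library with the lowest summed level of all 30. Without all 4 libraries that stood apart 49 were lower, and 4885 of all genes were lower in that fit, against 5264 with all libraries. This comparison and the preceding one share the oxLDL libraries, so their opposite signs are not independent of each other.

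Zfp984 (ENSMUSG00000078495, chromosome 4, 147753974 to 147809788) had the largest decrease among called members with non-overlapping groups and a mean of at least 1 CPM. It was at 5.65, 8.51, 4.82, 4.35 and 7.92 CPM with oxLDL and at 1.158, 1.37, 1.87, 0 and 1.21 CPM with oxLDL+pNaKtide. No libraries overlapped, and it fell by 2.37 ± 0.49 on the log2 scale (BH-adjusted p = 0.000335). Its own words made up 45.5%, and 46.9% were shared with the predicted gene Gm13212.

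Zfp994 was at 1.62, 1.90, 3.20, 1.49 and 1.21 CPM with oxLDL+pNaKtide, all below its lowest oxLDL library, and fell by 2.099 ± 0.36 (BH-adjusted p = 6.15e-05). Zfp995 (chromosome 17) was at 4.45, 4.97, 3.33, 3.47 and 4.57 CPM with oxLDL and at 0.463, 0.950, 1.69, 0.497 and 1.01 CPM with the peptide added. The groups were apart, and it fell by 2.09 ± 0.37 (BH-adjusted p = 6.14e-05). Zfp979 was at 1.04, 1.58, 2.58, 0.828 and 0.906 CPM and fell by 2.03 ± 0.34 (BH-adjusted p = 4.64e-05).

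Zfp930 had the smallest p-value of the members. Its level with oxLDL+pNaKtide was 2.55, 2.95, 5.33, 1.99 and 2.11 CPM, below every oxLDL library, and it fell by 1.88 ± 0.27 (BH-adjusted p = 1.31e-05). Zfp970 was at 8.69, 12.3, 11.8, 7.78 and 10.2 CPM and fell by 1.35 ± 0.25 (BH-adjusted p = 0.000127). Zfp961 fell by 0.71 ± 0.13 (BH-adjusted p = 7.11e-05), a call that was lost with GC content and length offsets (-0.19 ± 0.09, BH-adjusted p = 0.109), and Zfp954 again did not pass the test, at 8.69, 10.3, 11.4, 12.9 and 12.2 CPM (difference 0.05 ± 0.13, BH-adjusted p = 0.795).

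Indoxyl sulphate gave a smaller count that rested on single libraries. With IS, 22 of 62 members were higher than in Control and 0 were lower, where 4.45% of all genes were higher and 3.49% lower. At an unadjusted p under 0.05, 46 were higher and 0 lower, where 5036 of all 20139 genes were under it in either direction. DESeq2 called 23 and limma 21, all higher. Fitted on the IS and Control libraries alone, edgeR called 0 members and 0 of all genes. Of the 46 members at 1 CPM or more, 21 were higher. The median log2 fold change was 0.80, and in 1 member, Zfp952, the groups did not overlap, as in 0.854% of all genes. Without Control replicate 1 the count was 47 and without IS replicate 4 it was 48, without both it was 49 higher and 1 lower, and without all 4 that stood apart it was 51 higher and 1 lower. The genes called higher among all 20139 moved in the same fits, from 897 with all libraries to 3651, 3459, 4791 and 5170. It was 0 without any 1 of Control replicates 2, 4 and 5 and IS replicates 1 and 2, 5 without Control replicate 3, and 1 without IS replicate 3 or 5. In those 8 fits 2 to 180 of all genes were higher.

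Zfp952 (ENSMUSG00000053390, chromosome 17, 32993129 to 33005457) was at 7.30, 5.93, 6.88, 5.38 and 6.71 CPM in Control and at 9.0, 8.74, 8.59, 7.61 and 7.86 CPM with IS. The groups were apart and the change was small, 0.38 ± 0.11 (BH-adjusted p = 0.0771). The call was lost with GC content and length offsets (0.11 ± 0.10, BH-adjusted p = 0.606) and in 8 of the 10 fits without 1 library, all but those without Control replicate 1 or IS replicate 4 (changes of 0.32 to 0.43 over the 10, BH-adjusted p up to 0.223). Zfp994 was at 8.69, 9.10, 7.38, 1.32 and 5.18 CPM with IS, high in all but replicate 4, and rose by 1.45 ± 0.34 (BH-adjusted p = 0.0470). Zfp975 rose by 1.31 ± 0.30 (BH-adjusted p = 0.0443). Each of these 2 calls was kept in only 4 of the 10 fits without 1 library, with BH-adjusted p up to 0.172 for Zfp994 and 0.168 for Zfp975. For Zfp961 the difference was 0.31 ± 0.12 (BH-adjusted p = 0.126).

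In the other 4 comparisons of 2 groups 0 members were called by edgeR. For pNaKtide against Control the median was -0.10, and 2 members were higher at an unadjusted p under 0.05, where 1233 of all 20139 genes were under it in either direction. By the adjusted p 0 of all genes were higher and 0.00497% lower. For IS+pNaKtide against IS the median was -0.22, and 2 members were lower at an unadjusted p under 0.05, where 564 of all genes were under it in either direction. By the adjusted p 0 of all genes were called either way. For oxLDL+pNaKtide against Control the median was -0.24, and 2 were lower at an unadjusted p under 0.05, where 3468 of all genes were under it in either direction. By the adjusted p 2.04% of all genes were higher and 3.16% lower. DESeq2 and limma called 0 members in these 3. For IS+pNaKtide against Control the median was 0.56, and 25 members were higher at an unadjusted p under 0.05, where 4022 of all 20139 genes were under it in either direction. The smallest BH-adjusted p of a member was 0.112, and by the adjusted p 0.139% of all genes were higher and 0.218% lower. DESeq2 called 4 members higher there and limma 1, and edgeR called 36 without Control replicate 1, 40 without that library and IS replicate 4, and 45 without all 4 that stood apart. Of all 20139 genes 2908, 3430 and 3943 were higher in these 3 fits, against 28 with all libraries. For IS+pNaKtide against IS edgeR called 0 members without those 2 libraries and 2, both lower, without the 4. For pNaKtide against Control and for oxLDL+pNaKtide against Control it called 0 both ways, and the median of the latter was -0.03 and 0.11.

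**Figure D3:**
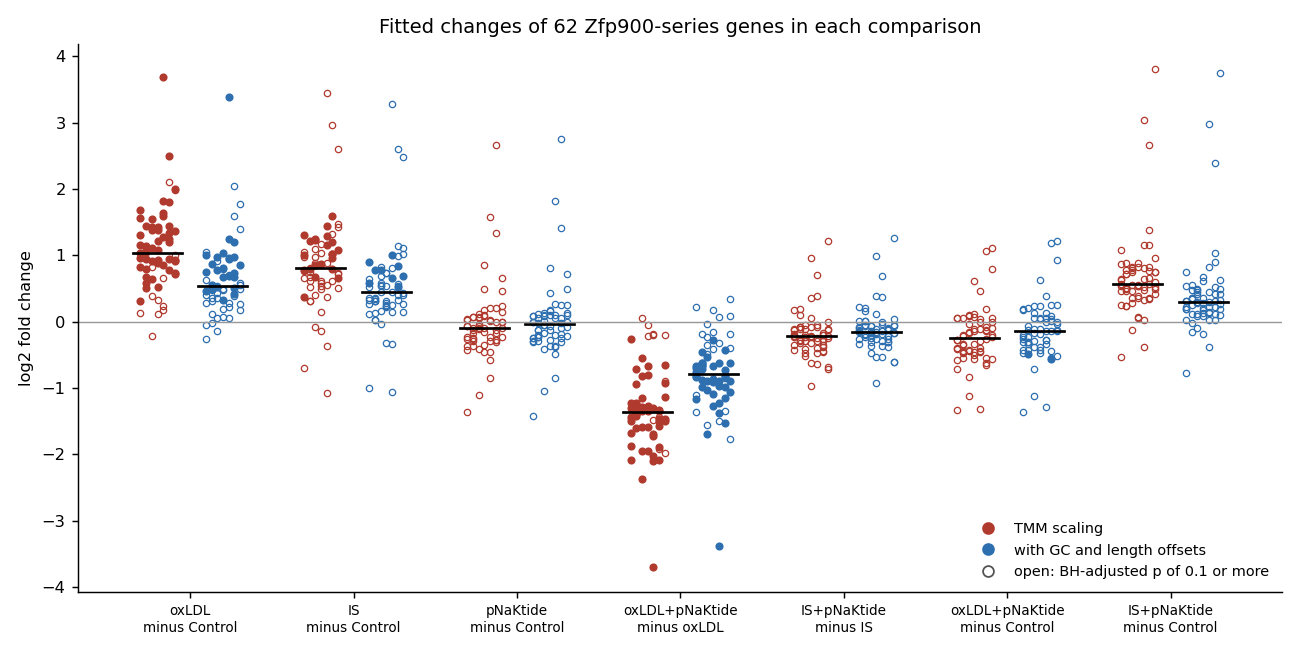
Fitted log2 fold change of each of the 62 members (points) in 7 comparisons, under TMM scaling (red) and with GC content and length offsets (blue); filled points passed a BH-adjusted p of 0.1 and the black lines are medians. The median is 1.04 and 0.54 for oxLDL against Control, and -1.37 and -0.79 for oxLDL+pNaKtide against oxLDL. In these 2 comparisons the 46 members at 1 CPM or more lie from -0.22 to 1.81 and from -2.37 to 0.05 under TMM scaling, and the points farther out are members under 1 CPM.

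Whether the change with pNaKtide under oxLDL differed from that without oxLDL was tested as an interaction. It was negative and past the threshold in 29 of 62 members and positive in 0, where 11.8% of all genes had a negative and 12.8% a positive term. At an unadjusted p under 0.05, 37 were negative and 0 positive, where 6494 of all genes tested were under it in either direction. DESeq2 called 33 and limma 36, all negative. Of the 46 members at 1 CPM or more, 27 were negative. The term was -2.05 ± 0.51 for Zfp979 (BH-adjusted p = 0.0229) and -1.81 ± 0.39 for Zfp930 (BH-adjusted p = 0.0186). For Zfp954 it was 0.09 ± 0.18 (BH-adjusted p = 0.774). The count was 44 without Control replicate 1, 10 without pNaKtide replicate 3 and 16 without oxLDL+pNaKtide replicate 4. It was 46 without Control replicate 1 and IS replicate 4, and 30 without all 4 libraries that stood apart. The negative terms among all genes were 3856, 804, 1118, 4157 and 2937 in these 5 fits, in the order given, against 2376 with all libraries.

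GC content moved with these results. The longest transcripts of the members had a median GC content of 38.6%, against 49.4% for all genes tested, and 59 members were below that general median. Their median exon length, 3040.5 bases, was near that of all genes, 3105. In each library a smooth trend of level over GC content and exon length was fitted on 12104 other genes without zinc finger symbols. At the members' GC content and length this trend was at 0.17 to 0.49 (log2, median over members) in the oxLDL libraries, at -0.37 to 0.08 in Control, at -0.71 to 0.09 with oxLDL+pNaKtide and at -0.30 to 0.37 with IS. It was highest within Control in replicate 1 and lowest within IS in replicate 4. Why the libraries differ in this trend was not tested, and a change of many low-GC genes in the cells and a difference in library preparation cannot be told apart here.

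With the trend as an offset in the same model, 25 members were higher with oxLDL than in Control and 0 lower (9.01% of all genes higher, 11% lower), with a median of 0.54. At an unadjusted p under 0.05, 33 were higher and 0 lower. With oxLDL+pNaKtide, 40 were lower than with oxLDL and 0 higher (18.9% of all genes lower, 18.4% higher), with a median of -0.79. With IS 9 were higher and 0 lower (2.16% and 2.1% of all genes), and the interaction was negative in 9 (4.69% of all genes) and positive in 0 (6.88%). For oxLDL+pNaKtide against Control 2 members, Zfp958 and Zfp931, were lower (4.48% of all genes lower, 5.08% higher), by 0.56 and 0.48 on the log2 scale. For pNaKtide against Control, IS+pNaKtide against IS and IS+pNaKtide against Control 0 members were called by edgeR with offsets, where 0.0397% of all genes were higher in the second and 0.963% higher and 1.13% lower in the third. At an unadjusted p under 0.05 these 3 comparisons had 1, 1 and 13 members higher and 1, 4 and 0 lower. Counts of all genes at the unadjusted threshold with offsets are not given, so the unadjusted member counts with offsets are a description. Without Control replicate 1 and IS replicate 4 the offsets gave 40 higher and 1 lower with oxLDL and 38 higher with IS, and without all 4 libraries that stood apart 40 higher and 1 lower, and 37 higher. Of all genes, 3635 were higher with oxLDL and 3477 with IS in the first of these fits, and 3752 and 3603 in the second, against 1814 and 435 with offsets and all libraries. The interaction was then negative in 20 and 11 members, and in 2472 and 1440 of all genes, against 944.

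Single members kept different parts of their change. With offsets, Zfp994 rose with oxLDL by 1.24 ± 0.24 (BH-adjusted p = 0.00739) and Zfp930 by 0.74 ± 0.15 (BH-adjusted p = 0.00886), and Zfp930 fell with pNaKtide added by 1.17 ± 0.17 (BH-adjusted p = 6.51e-06). Zfp948 fell by 1.10 ± 0.19 (BH-adjusted p = 8.9e-05), Zfp958 by 0.99 ± 0.18 (BH-adjusted p = 0.0001) and Zfp979 by 1.23 ± 0.23 (BH-adjusted p = 9.6e-05). Zfp961 lost both calls, at 0.12 ± 0.08 with oxLDL (BH-adjusted p = 0.353) and -0.19 ± 0.09 with pNaKtide added. Zfp952 had a difference of -0.05 ± 0.10 with oxLDL (BH-adjusted p = 0.809) in place of 0.32 ± 0.12 (BH-adjusted p = 0.0422), and its difference with pNaKtide added turned from -0.26 to 0.23 (BH-adjusted p = 0.11). Within the members the same order was seen: of the 40 with a GC content under 40%, 36 were higher with oxLDL, with a median of 1.33, and of the 22 at 40% or more 14 were, with a median of 0.65. With offsets these counts were 21 and 4.

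The position of the members was compared by cluster, as counts. With oxLDL all 10 members of the chromosome 17 cluster were higher (6 with offsets), as were 9 of 10 in the chromosome 2 cluster (3 with offsets) and 12 of 15 in the chromosome 4 cluster (8 with offsets). Their medians were 1.31, 0.87 and 1.54. With pNaKtide added to oxLDL, 10 of 10, 9 of 10 and 11 of 15 were lower, and with offsets 10, 9 and 9. The chromosome 7 cluster had 3 of 4 higher with oxLDL (2 with offsets) and the chromosome 8 cluster 3 of 3 (1 with offsets). Of the members outside the clusters, Zfp940, Zfp941, Zfp949, Zfp951, Zfp954, Zfp956 and Zfp957 did not pass the test with oxLDL. The rest were higher, Zfp958 and Zfp961 among them. With offsets Zfp956 passed it (0.33), Zfp958 kept its call (0.42 ± 0.16, BH-adjusted p = 0.0816) and Zfp961 did not. Over 18 alternative fits Zfp958 was called in 17, with BH-adjusted p up to 0.145.

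Shared reads were considered by splitting the members at the share of words of their own. Of the 23 members with 90% or more, 15 were higher with oxLDL (8 with offsets) and 17 lower with pNaKtide added (13 with offsets). Of the 22 members between 50% and 90%, 21 were higher (9 with offsets) and 19 lower (14 with offsets). Of the 17 members below 50%, 14 were higher (8 with offsets) and 14 lower (13 with offsets). The median change with oxLDL was 0.94, 1.38 and 1.162 in that order, and 0.42, 0.83 and 0.68 with offsets. The difference between these splits, and the part of shared reads in the changes, was not tested.

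**Figure D4:**
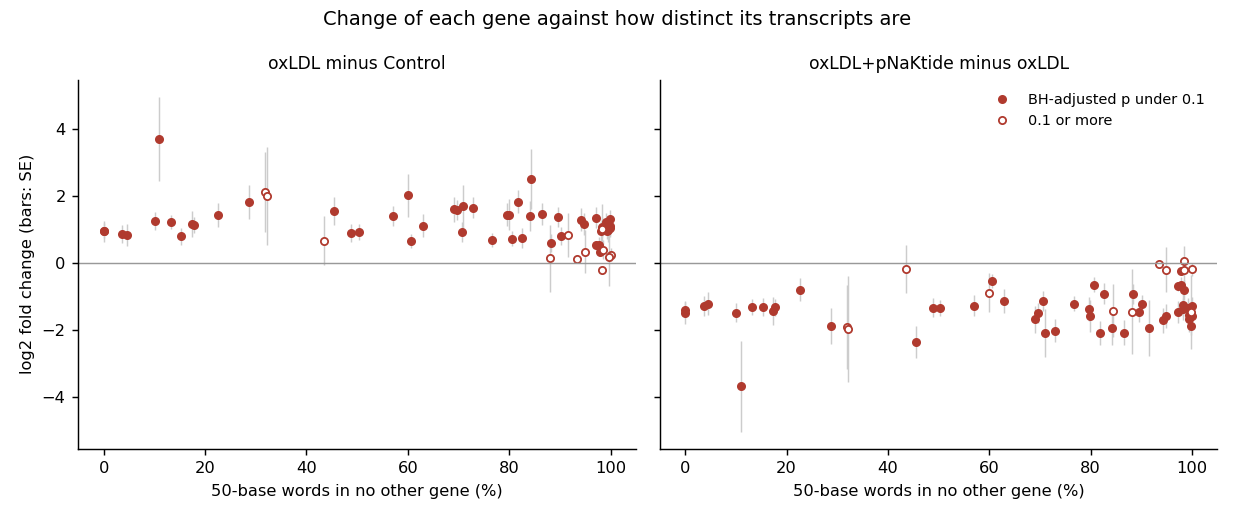
Fitted log2 fold change of each of the 62 members (points, bars are SE) against the share of its 50-base words that occur in no other gene, for oxLDL against Control (left) and oxLDL+pNaKtide against oxLDL (right); filled points passed a BH-adjusted p of 0.1. Called members occur over the whole range from 0 to 100%, and most open points of the left panel lie above 90%.

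Related genes outside the number block were counted in the same fit. Of 50 predicted genes (symbols of Gm and a number) with at least 3 C2H2 motifs, 40 were higher with oxLDL and 0 lower (19 and 0 with offsets), and 43 were lower and 0 higher with pNaKtide added (33 and 0 with offsets). Of 282 other numbered Zfp genes, 123 were higher and 19 lower with oxLDL (50 and 12 with offsets), and 177 were lower and 31 higher with pNaKtide added (112 and 20 with offsets). In a split made after values were seen, 94 of these 282 had the KRAB pattern, with 51 higher and 0 lower with oxLDL, and 188 did not, with 72 higher and 19 lower. With offsets the counts were 18 higher and 1 lower (19.1% and 1.06%) and 32 higher and 11 lower (17.0% and 5.85%), with the shares of higher genes near each other. With pNaKtide added to oxLDL, 72 of the 94 were lower and 1 higher, and 105 of the 188 were lower and 30 higher. With offsets these were 47 lower and 2 higher (50% and 2.13%) and 65 lower and 18 higher (34.6% and 9.57%). There the shares of lower genes stayed apart. The median GC content was 38.6% in the members, 39.5% in the predicted genes, 41.9% in the other genes with the KRAB pattern and 47.9% in those without it. No test was made between these classes, and with 50 of 62 members and 40 of 50 predicted genes higher with oxLDL the number block itself did not stand out from the predicted zinc finger genes.

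**Figure D5:**
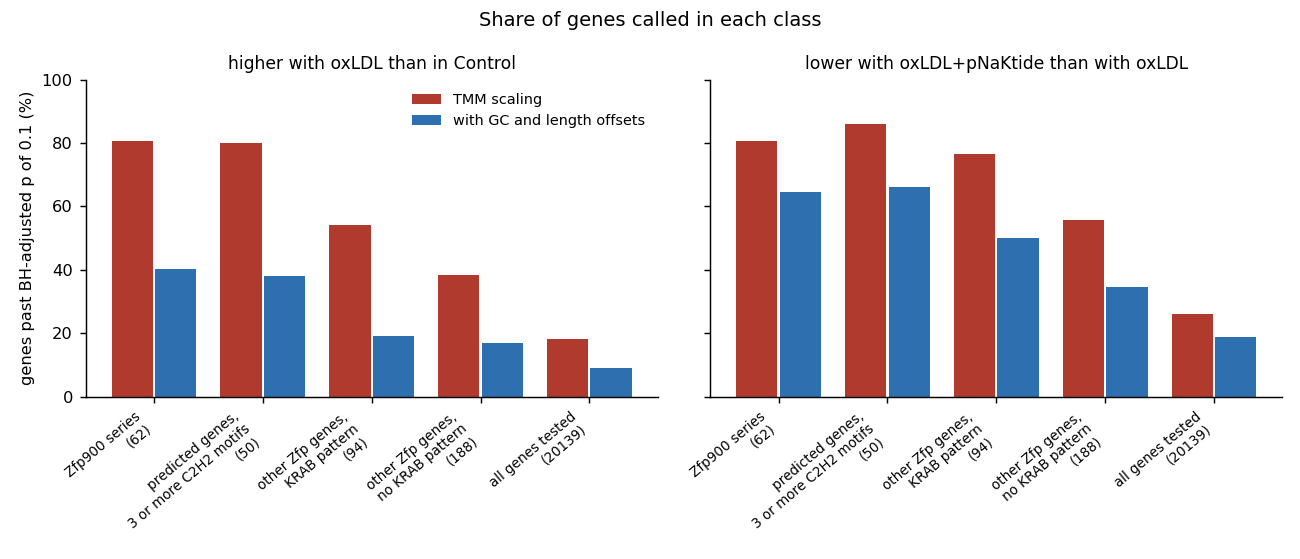
Share of genes in each class (bars, in percent, with the number of genes in parentheses) that were higher with oxLDL than in Control (left) or lower with oxLDL+pNaKtide than with oxLDL (right) at a BH-adjusted p under 0.1, under TMM scaling (red) and with GC content and length offsets (blue). The Zfp900 series is at 80.6% in both panels under TMM scaling, and at 40.3% and 64.5% with offsets.

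A list of 28 genes linked to KRAB repression was read as well. It holds general chromatin genes and Zfp57, which also counts among the other numbered Zfp genes. Of the 28, 12 were higher and 2 lower with oxLDL (6 and 2 with offsets), where 18.1% of all genes were higher and 18% lower (9.01% and 11% with offsets). With IS 2 were higher and 1 lower (1 and 0 with offsets), beside 4.45% and 3.49% of all genes. With pNaKtide added to oxLDL 19 were lower and 3 higher (12 and 4 with offsets), beside 26.1% and 22.1% of all genes. Trim28, the corepressor, was at 200, 258, 241, 254 and 259 CPM in Control and at 180, 171, 194, 201 and 166 CPM with oxLDL. Control replicate 1 was the lowest Control library and lay just below the highest oxLDL library, and Trim28 fell by 0.41 ± 0.09 on the log2 scale (BH-adjusted p = 0.00700). With offsets it fell by 0.15 ± 0.05 (BH-adjusted p = 0.0709). Over 19 alternative fits it was called lower in 18, with BH-adjusted p up to 0.221. With pNaKtide added to oxLDL it was at 214, 222, 222, 272 and 238 CPM, a rise of 0.36 ± 0.09 (BH-adjusted p = 0.00110), whose call was lost with offsets (0.06 ± 0.05, BH-adjusted p = 0.422) and whose sign turned with GC content offsets alone (-0.02).

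Setdb1, the histone methyltransferase, had 43.5 to 53.3 CPM in Control and 49.0 to 55.2 CPM with oxLDL, an overlapping range (0.15 ± 0.09, BH-adjusted p = 0.227). It fell by 0.33 ± 0.09 with pNaKtide added (BH-adjusted p = 0.00371), and with offsets the difference was -0.11 ± 0.06 (BH-adjusted p = 0.193). Hdac2, a histone deacetylase, had the smallest p-value among the genes that rose with oxLDL (0.53 ± 0.14, BH-adjusted p = 0.00922), a call that was lost with offsets (0.14 ± 0.06, BH-adjusted p = 0.130). Morc3, an ATPase that takes part in silencing, had it among those that fell with pNaKtide added (-1.25 ± 0.20, BH-adjusted p = 3.3e-05, and -0.79 ± 0.13 with offsets), and Ehmt2, a histone methyltransferase, among those that rose (0.43 ± 0.10, BH-adjusted p = 0.000901). With offsets the change of Ehmt2 was 0.16 ± 0.06 (BH-adjusted p = 0.0234), and with GC content offsets alone it was 0.026, which did not pass the test. Smarcad1, a chromatin remodeller, had the smallest p-value among those that rose with IS (0.71 ± 0.20, BH-adjusted p = 0.0686). With offsets its change was 0.34 ± 0.09 (BH-adjusted p = 0.0450), and it kept its call in 2 of the 10 fits that left out 1 library, those without Control replicate 1 and without IS replicate 4, with BH-adjusted p up to 0.214 in the others.

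Cell type markers were read in the same libraries. The summed level of 8 adipocyte markers, all detected, was 12990 to 16339 CPM in Control, 12391 to 16399 with oxLDL, 15336 to 17353 with oxLDL+pNaKtide, 10950 to 13615 with IS, 12186 to 14111 with IS+pNaKtide and 14221 to 17986 with pNaKtide. The sum of 8 preadipocyte or fibroblast markers, of which Cd34 was at 0 to 0.497 CPM, was 4613 to 5888 CPM in Control, 3755 to 4358 with oxLDL, 3791 to 5456 with oxLDL+pNaKtide, 2870 to 4713 with IS, 2961 to 3852 with IS+pNaKtide and 3386 to 5468 with pNaKtide. Col1a1 and Col3a1, with means of 1664 and 2145 CPM over all libraries, made up most of this sum, and the next highest, Dlk1, had 131. The sum, largely that of these collagen genes, was lower in every oxLDL library and in every IS+pNaKtide library than in any Control library. Its part in the changes of the zinc finger genes was not tested. Leukocyte markers were at 3.61 to 6.49 CPM in Control and 3.5 to 5.32 with oxLDL, endothelial markers at 0.0946 to 0.317 and 0.124 to 0.340, and epithelial markers at 0.656 to 1.62 and 0.685 to 1.45. With pNaKtide alone the epithelial sum was 0.634 to 7.57 CPM, and in no other group was it above 1.90.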

How the data were processed

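RNAseq counts of 30 libraries of 3T3-L1 cells (6 groups of 5, grouped by title) were used. The authors trimmed reads with Trimmomatic 0.38, aligned them to GRCm38 with HISAT2 2.1.0 and made a deposited table of raw read counts per gene. The authors also deposited FPKM values, used here for levels per length and 1 alternative, and normalized counts made with DESeq2 1.20.0, not used here. For the annotation release, the strand setting and multiply mapped reads, no source used here says what was done. Sample-sheet numbers run in order through the groups, so that order and group cannot be told apart.

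Gene symbols, positions, GC content and coding sequences came from the GENCODE M21 annotation and its translated coding sequences. Genes with more than 14 counts in all were tested with edgeR 4.0.16 (robust quasi-likelihood, TMM, R 4.3.3), all 30 libraries in 1 model of 6 groups, and p-values were adjusted over 20139 genes (threshold 0.1). CPM are TMM-scaled. GC content and length trends were fitted per library with mgcv 1.9.3 (prior count 2, mean log2 CPM of at least 1) and entered as offsets. DESeq2 1.42.0 and limma 3.58.1 (log2(FPKM + 1), mean FPKM of at least 0.5) were alternatives. Their member counts are given without the count over all genes and are not read as a result about the members. The code was tested on simulated counts. The lowest chi-square per degree of freedom between 60 pairs of libraries within groups was 1.28, so that no library was taken as deposited in duplicate.

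The members and all lists were chosen with earlier results of these data known. Members named were the 4 largest changes per direction among called members with mean log2 CPM of at least 0 and non-overlapping groups (oxLDL or IS against Control, oxLDL+pNaKtide against oxLDL), the 5 of highest CPM, the 4 with the smallest adjusted p with offsets, and the symbols beside the count threshold. Zfp931, Zfp935, Zfp939, Zfp940, Zfp941, Zfp949, Zfp951, Zfp956, Zfp957 and Zfp967 were named after their values were seen.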

Additional observations from a re-analysis of the deposited data

Results flagged for a closer look

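In 22 of 144 groups of 5 libraries 1 library lay far from the other 4 (the gap over the range above Dixon's 0.71), where chance gives about 1 in 20, and the values of 1 library are not independent between genes. Control replicate 1 was high, with 310.3 CPM for the members' sum after the GC content and length trend was taken out, 24.2 CPM for Zfp970, 14.9 for Zfp969, 19.1 for Zfp968 and 14.4 for Zfp948. IS replicate 4 was low for Zfp970 (10.5 CPM), Hdac2 (38.9), Morc3 (12.5) and Smarcad1 (13.0), and high for Zfp989 (0.282), a member with 15 counts in all. Replicate 3 of pNaKtide was high for Zfp994 (3.08 CPM), Zfp995 (2.63), Zfp930 (7.60), Zfp958 (6.16) and Morc3 (25.3). Replicate 2 of IS+pNaKtide was low for the sum without trend (245.9 CPM), Zfp969 (9.67), Zfp968 (8.30) and Setdb1 (41.0). Replicate 4 of oxLDL was low for Zfp979 (2.82 CPM) and Morc3 (26.0), and replicate 3 of oxLDL+pNaKtide was high for Zfp930 (5.33 CPM).

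The change with pNaKtide under oxLDL differed from that without oxLDL, by the interaction term of edgeR's quasi-likelihood test at a BH-adjusted p under 0.1, in 11 of the named members. The named members include those picked for their changes with oxLDL and with pNaKtide added, and these changes are parts of the term. The count is therefore a description. Of all genes, 11.8% had a negative term past the threshold, and 4.69% with GC content and length offsets. The terms on the log2 scale were -0.54 for Zfp961, -1.27 for Zfp958, -1.81 for Zfp930, -2.05 for Zfp979, -1.43 for Zfp948, -1.90 for Zfp934, -1.97 for Zfp995, -1.43 for Zfp970, -1.26 for Zfp968, -1.49 for Zfp969 and -1.65 for Zfp994. With GC content and length offsets the terms of Zfp930, Zfp979, Zfp948, Zfp995, Zfp970 and Zfp969 passed the threshold.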

How the results depend on the processing

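The members called differed most for IS against Control (22) and IS+pNaKtide against Control (0). In that order the counts were 37 and 11 with the replicate number as a block and 11 and 3 with the block and GC content and length offsets. Genes called higher among all 20139 went from 897 and 28 to 1808 and 787 with the block, and IS against Control had 2125 by library size alone. Member counts below that stand without the count over all genes describe the fit alone. They are not read as a result about the members. Members called were 0 and 12 in fits of the compared groups alone. Without Control replicate 1 and IS replicate 4 they were 50 and 40 (38 and 21 with offsets), and without these, pNaKtide replicate 3 and oxLDL+pNaKtide replicate 4 they were 52 and 45 (37 and 22 with offsets), both choices made after the data were seen. In the latter fits IS+pNaKtide against IS (0) gave 2, and 1 with offsets. IS against Control gave 37 by library size alone, 11 with every gene of at least 1 count, 9 with offsets, 5 with GC content alone, 7 after thinning to the smallest library and 3 at an adjusted p of 0.05. IS+pNaKtide against Control gave 3 with length alone, 1 with filterByExpr, 4 by DESeq2 and 1 by limma. With over 14 counts in every library only 9 members were tested, and 6 were called for oxLDL against Control, 4 for IS, 6 for oxLDL+pNaKtide against oxLDL and 5 for the interaction. oxLDL against Control (50) gave 25 with offsets, 23 with GC content alone and 31 with block and offsets. The interaction (29) gave 9, 10 and 13 in these fits, 46 without the 2 libraries, 30 without the 4 (11 with offsets) and 19 at an adjusted p of 0.05. oxLDL+pNaKtide against Control (0) gave 2 with offsets, 2 with block and offsets, 1 with the 2 libraries left out and offsets and 4 with the 4 left out and offsets.

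Leaving out 1 library at a time gave 43 to 52 for oxLDL against Control, 0 to 48 for IS, 47 to 50 for oxLDL+pNaKtide against oxLDL, 10 to 44 for the interaction, 0 to 36 for IS+pNaKtide against Control (36 without Control replicate 1), 0 to 2 for oxLDL+pNaKtide against Control (2 without oxLDL+pNaKtide replicate 3), and 0 for the other comparisons. The median summed CPM moved by more than the SD of the group for pNaKtide with offsets (220.7 in place of 168.1). It did so too for IS+pNaKtide without the 3 members of highest count (242.5 in place of 294.4). Moves within the SD included those with offsets in Control (214.2 in place of 171.8) and with oxLDL (325.1 in place of 387.1).

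The difference of Zfp952 turned sign with offsets (-0.0477 with oxLDL, 0.226 with pNaKtide added), GC content alone (-0.051 and 0.222), block and offsets (-0.0493 and 0.225) 2 libraries left out with offsets (-0.0638 and 0.227) and 4 left out with offsets (-0.0654 and 0.238), and that of Trim28 with pNaKtide added turned with GC content alone (-0.019). The cause was not tested. By library size alone the median of all genes moved from 0.04 to 0.17 for oxLDL against Control and from -0.09 to -0.30 with pNaKtide added, and all-gene calls were 4963 higher and 2276 lower, and 2696 higher and 7680 lower, in place of 3637 and 3622, and 4458 and 5264.

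Same-numbered libraries of different groups had a median correlation of 0.0996 (-0.66 to 0.79), over 0.1 in 37 of 75 pairs, and those of different numbers -0.034, over 0.1 in 114 of 300. Not every same-number pair was over 0.1 and no label says what a number marks, so the numbers were not used as pairs. Low counts limit the 16 members under 1 CPM, of which 7 were called with oxLDL.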
